A study of Mus musculus with 6 samples.

Results

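Hypoxia response and glycolysis genes were followed through bulk RNA sequencing of tumours grown from LLC1 cells, a mouse Lewis lung carcinoma line (ATCC CRL-1642). The members are a fixed list of 39 gene symbols, 19 of glycolysis and 20 other genes known to respond to low oxygen, out of 19288 gene IDs in the deposited table. All 39 were found by symbol, and all 39 were among the 13632 genes that passed the filter on low counts. The 6 libraries form 3 groups of 2, and every host carried the beta-hCG transgene, which encodes the beta subunit of human chorionic gonadotropin. The progesterone tumours came from ovariectomized transgenic mice given progesterone, and the vehicle tumours from ovariectomized transgenic mice given vehicle, in each case for 28 days. The transgenic tumours came from beta-hCG transgenic mice for which the labels name neither surgery nor supplementation. All hosts were offspring of a CB57BL/6 female (spelled as labelled) and a beta-hCG transgenic FVB male, and all tumours were taken 30 days after implantation. The sources used here give no promoter for the transgene, no age and no host without it, and they do not say that the 2 libraries of a group came from separate animals, so p-values measure only the spread between these libraries. Vehicle against transgenic differs by ovariectomy and by vehicle dosing together, and their parts cannot be told apart. Symbol matches were made to Ensembl gene IDs. Aldoa has a second ID in the table (ENSMUSG00000114515), at 1.43 to 3.06 CPM, and ENSMUSG00000030695 was used. CPM is a gene's read count scaled by library size, so that libraries of different depth can be compared.

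Cells sense oxygen through the EGLN prolyl hydroxylases, which use oxygen to mark HIF-1 alpha, the protein of Hif1a, for VHL-dependent destruction. In low oxygen the protein persists, pairs with ARNT and binds hypoxia response elements, whose core is ACGTG or GCGTG. The targets include glucose transporters and glycolytic enzymes, which make ATP and lactate without oxygen, and genes of mitophagy, collagen modification, pH control and feedback on HIF itself. HIF-1 alpha is controlled largely at the protein level, which RNA counts do not show. In solid tumours such genes are used as readouts of regions far from perfused vessels, and glycolysis is often high in tumour cells even where oxygen is present.

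The core motif was looked for in promoters, since it is the core of the elements that HIF binds. RefSeq promoter windows on GRCm38.p6, running from 250 bases before to 50 bases after a gene's start, were matched to 32 members by symbol. The 7 others are Bnip3l, Ndrg1, Ero1l, Plod2, Bhlhe40, Angptl4 and Slc2a3. At least 1 ACGTG or GCGTG, on either strand and so also as CACGT or CACGC, stood in a window of 29 of these 32 members. Over windows, 38 of 48 (79.2%) held a motif, against 14380 of 32851 (43.8%) of all promoter windows. Windows of 1 gene can overlap, as in Ak4, Eno1 and Aldoa, so the same motif can count more than once. A gene with several windows also has more chances to hold a motif, and the share by gene over all genes was not worked out. The members' windows were also richer in G and C (median 65%, against 52.7%), and among windows with at least 60% GC the shares were 32 of 34 (94.1%) for members and 6707 of 9690 (69.2%) for all. Windows of the 6 members with the smallest p in vehicle tumours against the rest that held both a window and a motif are printed below 5' to 3' on the gene's strand, together with Gpi1, the leading member whose window held none. Capitals mark each motif, and overlapping matches run together: the palindrome CACGTG in Bnip3 counts as 1 match on each strand. Egln3 (chr12:54203825-54204124), Hk2 (chr6:82774405-82774704), Egln1 (chr8:124949205-124949504), Bnip3 (chr7:138909457-138909756) and Gpi1 (chr7:34230287-34230586) lie on the minus strand. P4ha1 (chr10:59323046-59323345) and Slc2a1 (chr4:119108495-119108794) lie on the plus strand. A match is only a description of these letters. The list was made of genes known for glycolysis or the response to low oxygen, so these shares describe the list and not these tumours. Whether HIF acts through these motifs here was not tested. The windows of Egln3 and of Gpi1, both among the members with the smallest p below, hold 1 and 0 motifs, whereas that of Bnip3 holds 5.
Egln3: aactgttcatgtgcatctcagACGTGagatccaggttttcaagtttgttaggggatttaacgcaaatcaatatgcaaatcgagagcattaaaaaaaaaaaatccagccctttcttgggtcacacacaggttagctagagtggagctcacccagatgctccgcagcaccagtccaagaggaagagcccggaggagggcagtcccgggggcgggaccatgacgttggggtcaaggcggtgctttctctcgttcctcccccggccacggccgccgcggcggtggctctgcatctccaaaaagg
Hk2: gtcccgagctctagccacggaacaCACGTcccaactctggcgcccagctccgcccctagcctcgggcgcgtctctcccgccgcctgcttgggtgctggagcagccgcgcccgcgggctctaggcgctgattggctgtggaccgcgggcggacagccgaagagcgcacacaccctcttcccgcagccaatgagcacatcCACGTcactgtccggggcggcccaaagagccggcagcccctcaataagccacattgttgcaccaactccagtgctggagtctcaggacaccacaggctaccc
Egln1: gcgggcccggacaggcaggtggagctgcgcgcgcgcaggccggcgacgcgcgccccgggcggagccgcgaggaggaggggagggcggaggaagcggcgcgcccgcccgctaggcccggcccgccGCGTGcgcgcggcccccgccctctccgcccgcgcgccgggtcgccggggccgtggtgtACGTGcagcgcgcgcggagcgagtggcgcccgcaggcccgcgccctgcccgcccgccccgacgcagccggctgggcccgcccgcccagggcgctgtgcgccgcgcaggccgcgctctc
Bnip3: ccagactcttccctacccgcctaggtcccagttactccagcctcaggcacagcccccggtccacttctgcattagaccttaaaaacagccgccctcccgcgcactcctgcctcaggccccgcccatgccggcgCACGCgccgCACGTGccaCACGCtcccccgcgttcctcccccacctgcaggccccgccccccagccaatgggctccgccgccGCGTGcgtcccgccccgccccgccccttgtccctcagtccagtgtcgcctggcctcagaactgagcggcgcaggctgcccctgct
P4ha1: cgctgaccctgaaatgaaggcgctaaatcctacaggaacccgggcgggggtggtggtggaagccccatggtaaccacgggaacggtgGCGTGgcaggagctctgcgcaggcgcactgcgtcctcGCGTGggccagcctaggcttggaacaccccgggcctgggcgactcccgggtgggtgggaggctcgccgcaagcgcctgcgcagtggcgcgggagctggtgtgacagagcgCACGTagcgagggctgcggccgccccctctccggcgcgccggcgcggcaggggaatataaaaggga
Slc2a1: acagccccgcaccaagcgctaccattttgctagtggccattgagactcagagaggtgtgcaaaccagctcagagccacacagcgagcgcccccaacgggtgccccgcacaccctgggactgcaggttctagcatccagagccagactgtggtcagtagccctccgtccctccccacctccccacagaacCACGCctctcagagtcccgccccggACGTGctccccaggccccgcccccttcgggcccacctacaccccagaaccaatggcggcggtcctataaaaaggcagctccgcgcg
Gpi1: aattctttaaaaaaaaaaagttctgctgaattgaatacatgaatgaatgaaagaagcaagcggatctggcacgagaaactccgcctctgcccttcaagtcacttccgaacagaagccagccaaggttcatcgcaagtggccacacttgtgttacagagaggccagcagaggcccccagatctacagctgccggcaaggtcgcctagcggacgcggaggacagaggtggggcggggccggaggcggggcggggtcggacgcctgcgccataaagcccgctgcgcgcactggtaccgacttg

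Library totals ran from 19526775 to 30083925 counts, so that every member rests on whole-library depth, and counting error limits only the lowest, Stc2. Replicates differed by far more than sampling noise: the chi-square per degree of freedom between the 2 libraries of a group was 65.6 for progesterone, 39.2 for vehicle and 98.4 for transgenic tumours. By this measure, on which abundant genes weigh most, the 2 transgenic libraries differed the most. Vehicle 1 and transgenic 1 carried much red blood cell RNA (2503 and 2828 CPM summed over 7 markers), the other 4 libraries 65.5 to 299.9 CPM. As for the label, Krt8 and Krt18 were at 125 to 393 CPM in the 6 libraries, while Epcam and Cdh1 reached at most 0.222 and 3.44 CPM and Sftpc at most 0.037 CPM. Epcam and Sftpc were thus at or near 0 in this carcinoma line's tumours, and Cdh1 was low but counted in all 6 libraries (1.70 to 3.44 CPM). Of the same list, Muc1, Krt19 and Krt7 reached at most 3.59, 3.22 and 0.206 CPM, and Nkx2-1 was not in the table. In bulk tissue, fewer cells of a type and less RNA per cell cannot be told apart, and tumour and host cells are both mouse.

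Progesterone tumours were lower than vehicle tumours in 38 of the 39 members, and the median of their log2 fold changes was -0.52 beside 0.01 over all 13632 genes. The largest differences were in Ero1l, Egln3 and Bhlhe40, at log2 fold changes of -1.27, -1.23 and -1.17. No gene was called by edgeR's quasi-likelihood test at an adjusted p under 0.05 (0% of all genes, 0 of 39 members, smallest adjusted p of a member 0.693). At an unadjusted p under 0.05, 15 members were lower and 0 higher, where 2.52% of all genes were lower and 2.77% higher. The groups did not overlap, progesterone below vehicle, in 29 members (17.8% of all genes). DESeq2 called 5 members, all lower (Hk2, Ero1l, Egln3, Egln1 and Bhlhe40), of 40 genes lower in all (0.293%), and limma-voom called 0 genes. Without the filter on low counts edgeR called 3 members, Egln3, Ero1l and Bhlhe40, all lower (0.477% of all genes in either direction). Without vehicle 1 the members at an unadjusted p under 0.05 numbered 8, where 0.933% of all genes were lower. Without progesterone 2 they numbered 10, where 2.85% of all genes were lower.

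Vehicle tumours were higher than transgenic tumours in 36 of the 39 members, and the members' median log2 fold change was 0.51 beside -0.01 over all genes. Slc2a1, Ero1l and Bnip3 had the largest positive differences, at 1.38, 1.24 and 1.03, and Angptl4, Gapdh and Pfkfb3 lay on the other side of 0. No gene passed edgeR's adjusted p (0% of all genes, smallest adjusted p of a member 0.810). At an unadjusted p under 0.05, 17 members were higher (2.68% of all genes) and 1, Angptl4, was lower (2.89%). The groups did not overlap, vehicle above transgenic, in 29 members (17.9% of all genes). DESeq2 called 4 members, all higher (Slc2a1, Gpi1, Ero1l and Bnip3; 0.22% of all genes), and limma-voom called 0 genes. Without the filter on low counts edgeR called 2 members, Slc2a1 and Ero1l (0.0622% of all genes in either direction). Single libraries weighed on this count: the 17 became 5 without vehicle 1, where 1.19% of all genes were higher, and 9 without transgenic 2, where 2.14% were. The median was 0.33 without transgenic 2 and 0.64 without transgenic 1. These 2 comparisons share the vehicle libraries, so a high or low vehicle value moves both at once, in opposite directions.

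Vehicle tumours were also set against the mean of the progesterone and transgenic tumours. They were higher in 37 of 39 members, and the median of the members' log2 differences was 0.49 beside -0.01 over all genes. Both vehicle libraries lay above all 4 other libraries in 25 members (6.87% of all genes) and below them in 0 (7.33%). At an unadjusted p under 0.05, 21 were higher (2.85% of all genes) and 0 lower (2.8%), and 0 passed edgeR's adjusted p (0% of all genes, smallest of a member 0.665). DESeq2 called 9 members, all higher: Slc2a1, P4ha1, Hk2, Gpi1, Ero1l, Egln3, Egln1, Bnip3 and Bhlhe40 (0.308% of all genes, and 0.227% lower). Without the filter on low counts edgeR called 5 of these, Egln3, Ero1l, Bhlhe40, Bnip3 and Slc2a1 (0.181% of all genes in either direction). Without vehicle 1 the 21 became 11, where 1.16% of all genes were higher.

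Progesterone and transgenic tumours differed by no common direction: 17 members were higher and 22 lower in progesterone tumours, and their median was -0.03 on the log2 scale beside 0.01 over all genes. No gene was called by edgeR (0% of all genes, smallest adjusted p of a member 0.914), DESeq2 called 0 members (0.242% of all genes higher, 0.103% lower) and limma-voom 0 genes. At an unadjusted p under 0.05, 4 members were lower (Egln1, Egln3, Angptl4 and Gapdh; 2.54% of all genes) and 0 higher (2.73%), and without progesterone 1 there were 0 (1.33% of all genes). Without progesterone 2 or transgenic 1 there were 2 (3.14% and 6.13% of all genes). The sign of this median, which is near 0, turned without transgenic 1 (0.14), without progesterone 2 (0.0036) and without the 8 members with processed copies (0.0080). A p that misses the threshold does not show that these groups are alike.

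**Figure D1:**
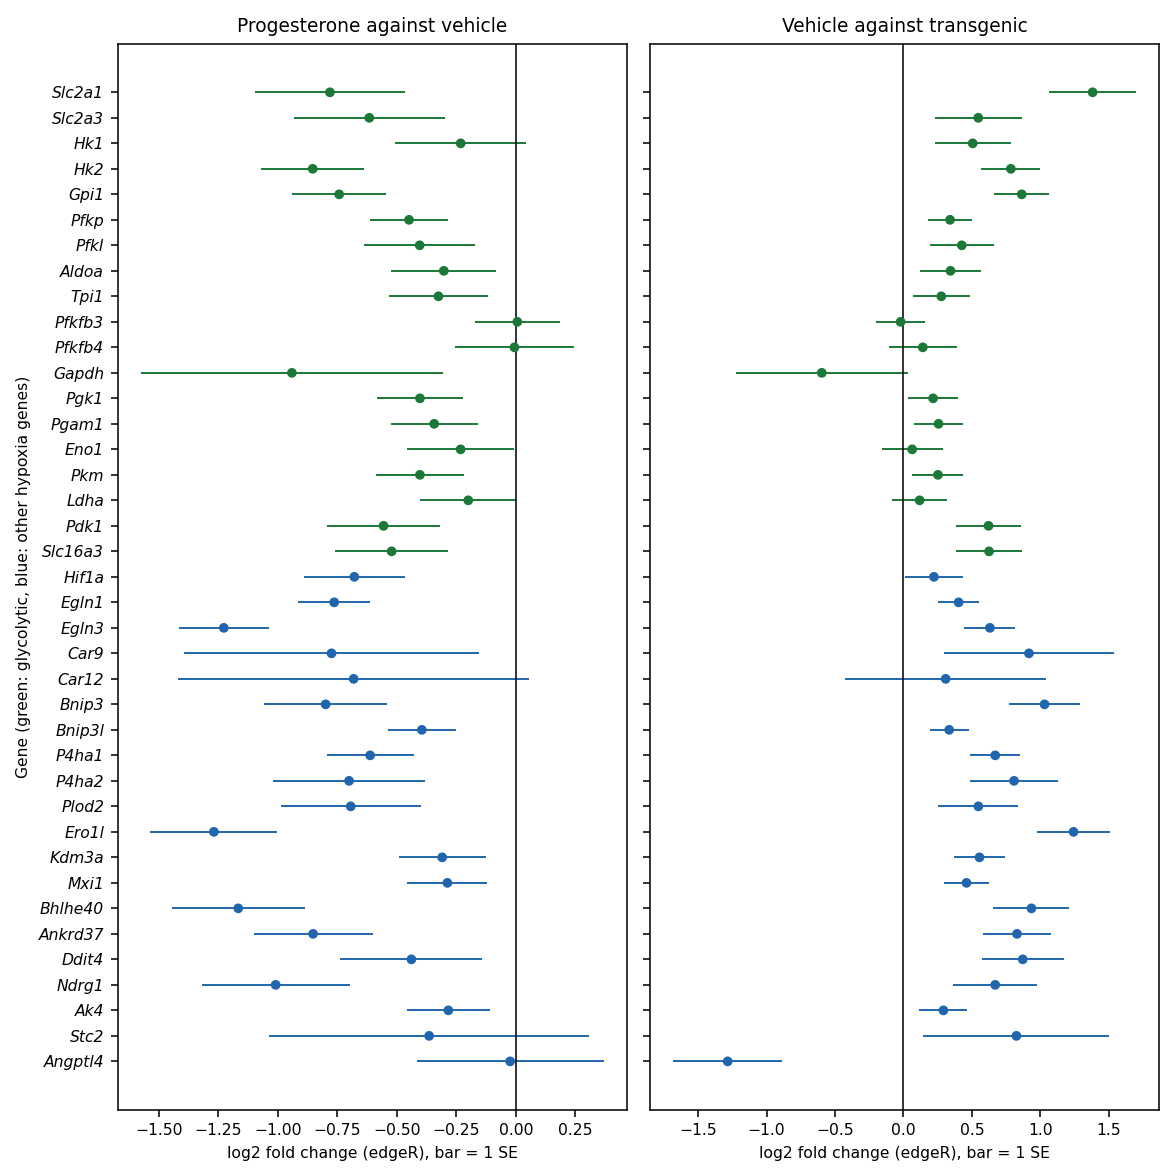
Log2 fold change (x axis, edgeR, bar = 1 SE) of each of the 39 members (y axis) in the comparisons named above the panels; green marks glycolytic and blue other hypoxia genes. In progesterone against vehicle tumours 38 members lie left of 0, and in vehicle against transgenic tumours 36 lie right of it.

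The 19 glycolytic genes had medians of -0.40 in progesterone against vehicle tumours (18 lower, 1 higher) and 0.34 in vehicle against transgenic tumours (17 higher, 2 lower). The 20 other hypoxia genes had medians of -0.69 (20 lower) and 0.65 (19 higher, 1 lower). Whether these medians differ between the sublists was not tested. Between the progesterone libraries, 17 of 19 glycolytic genes were higher in library 1, while 16 of 20 other hypoxia genes were higher in library 2, beside an even 6790 and 6842 of all genes. Between the transgenic libraries, 14 of 19 glycolytic and 16 of 20 other hypoxia genes were higher in library 1. Between the vehicle libraries the glycolytic genes split 10 to 9, and 14 of 20 other hypoxia genes were higher in library 1.

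Summed over the 19 glycolytic genes, the level was 12482 and 9342 CPM in progesterone, 14161 and 14577 CPM in vehicle, and 12124 and 10751 CPM in transgenic tumours. Both vehicle libraries lay above the other 4. For the 20 other hypoxia genes the sum was 2209 and 2513 CPM in progesterone, 4306 and 3875 CPM in vehicle, and 2994 and 2164 CPM in transgenic tumours. Again both vehicle libraries were the highest, and the progesterone and transgenic libraries overlapped. The glycolytic sum rests mostly on Pkm, Eno1, Ldha and Aldoa. Of these, Eno1, Ldha and Aldoa were higher in progesterone 1 than in vehicle 1. Per gene, both vehicle libraries lay above all others in 10 of 19 glycolytic and 15 of 20 other hypoxia genes (6.87% of all genes). Without progesterone 2 the glycolytic median in progesterone against vehicle tumours was -0.27 in place of -0.40.

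**Figure D2:**
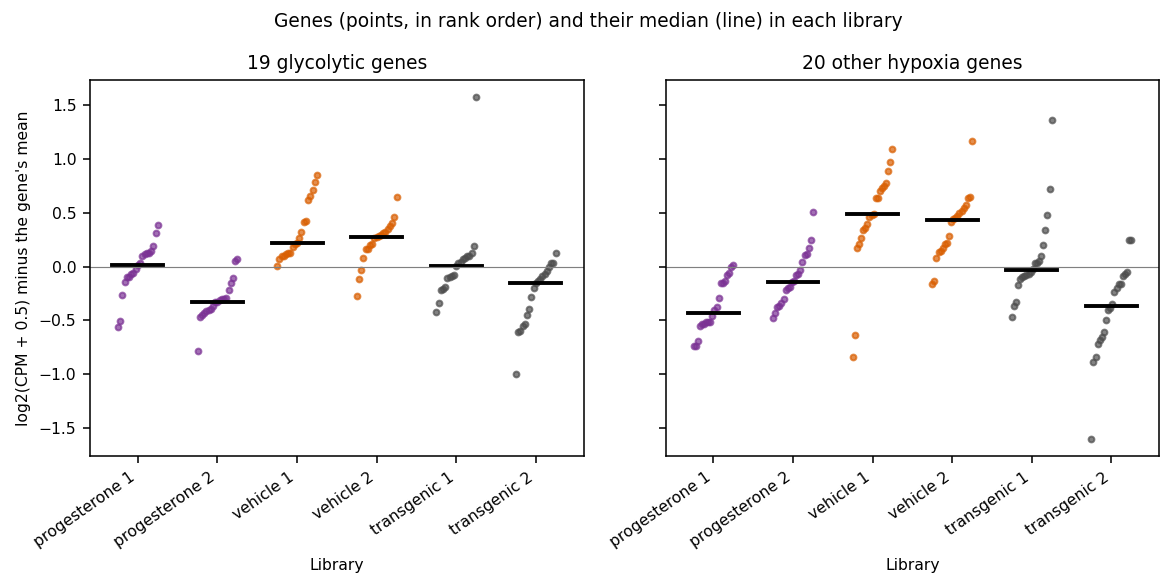
Each gene's log2(CPM + 0.5) minus its own mean over the 6 libraries (y axis) in each library (x axis), for the 19 glycolytic genes and the 20 other hypoxia genes; points are genes and the line is their median. The medians of the vehicle libraries are 0.21 and 0.27 for glycolytic genes and 0.48 and 0.43 for the others, above those of the other 4 libraries.

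**Figure D3:**
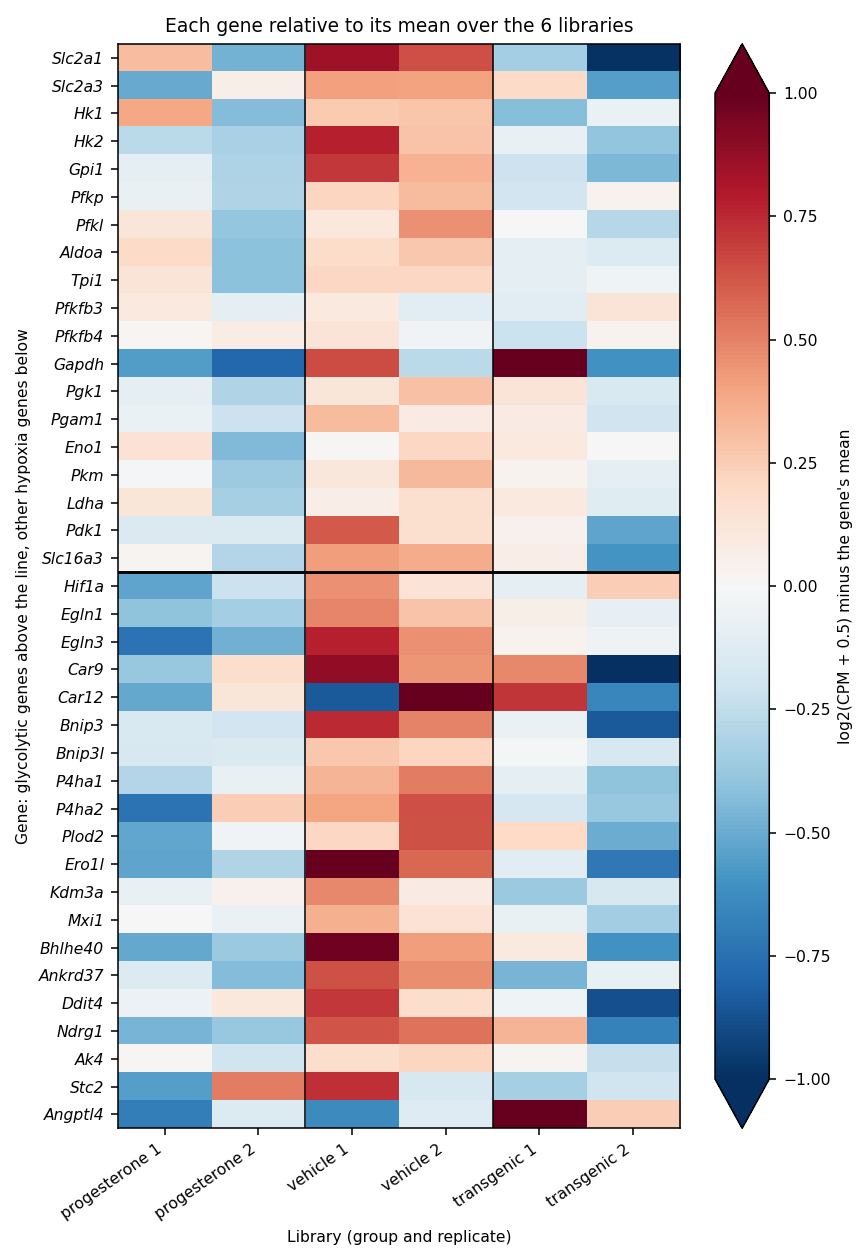
Log2(CPM + 0.5) minus the gene's mean over the 6 libraries (colour) for each member (rows, glycolytic genes above the line) in each library (columns). The vehicle columns are above the mean for most members, and Angptl4 and Gapdh stand out in transgenic 1.

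Egln3, a hydroxylase that HIF itself induces in a feedback loop, had 204 and 244 CPM in progesterone, 582 and 465 CPM in vehicle, and 348 and 328 CPM in transgenic tumours. The 3 groups did not overlap, with vehicle highest and progesterone lowest. Its log2 fold change was -1.23 ± 0.19 (SE, adjusted p = 0.693, edgeR) in progesterone against vehicle, 0.63 ± 0.19 in vehicle against transgenic (adjusted p = 0.810, edgeR), and -0.60 ± 0.19 in progesterone against transgenic tumours. Egln1, the main hydroxylase acting on HIF-1 alpha in normal oxygen, had 99.7 and 105 CPM in progesterone, 186 and 161 CPM in vehicle, and 137 and 125 CPM in transgenic tumours. It followed the same order with no overlap, and its log2 fold changes were -0.76 ± 0.15 in progesterone against vehicle and 0.40 ± 0.15 in vehicle against transgenic tumours. Per length of exon, Egln3 made up 59.9% and 65.9% of the summed Egln1, Egln2 and Egln3 level in progesterone, 75.6% and 72.8% in vehicle, and 69.6% and 70.8% in transgenic tumours. These shares kept the same order of groups without overlap.

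Hif1a, the oxygen-regulated subunit, had 39.02 and 48.5 CPM in progesterone, 77.8 and 62.2 CPM in vehicle, and 52.8 and 67.2 CPM in transgenic tumours. Progesterone libraries were the lowest, and vehicle and transgenic libraries overlapped. The log2 fold change was -0.68 ± 0.21 in progesterone against vehicle (adjusted p = 0.932, edgeR), 0.22 ± 0.21 in vehicle against transgenic, and -0.46 ± 0.21 in progesterone against transgenic tumours. With 1 library left out, the value in vehicle against transgenic tumours was 0.06 without vehicle 1 or transgenic 1, 0.37 without vehicle 2 and 0.41 without transgenic 2. The value in progesterone against transgenic tumours was -0.27 without transgenic 2. Set against Epas1, which encodes HIF-2 alpha, Hif1a made up 74.0% and 55.7% of their summed level per length in progesterone, 80.2% and 78.1% in vehicle, and 73.6% and 71.2% in transgenic tumours. The progesterone libraries differed from each other by more than the vehicle and transgenic ones did.

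**Figure D4:**
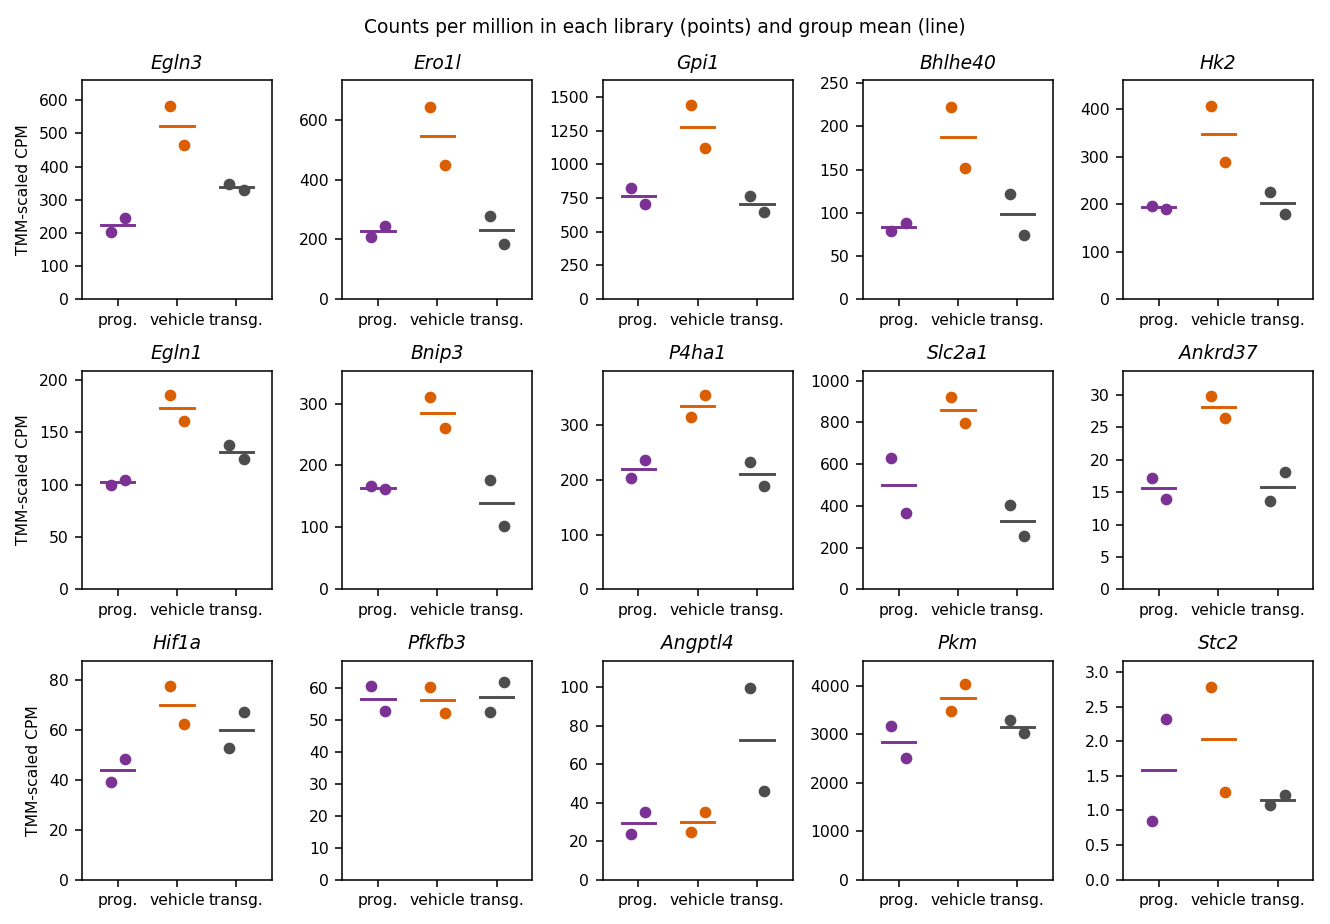
TMM-scaled CPM (y axis, from 0) of the members named by rule, with 1 point per library and a line at the group mean (n = 2), for progesterone, vehicle and transgenic tumours. Egln3, Ero1l, Gpi1, Bhlhe40, Hk2, Egln1, Bnip3, P4ha1, Slc2a1 and Ankrd37 were picked by the smallest p in vehicle tumours against the rest. In these genes both vehicle points lie above all others, which that choice favours. Angptl4 is highest in the transgenic tumours.

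Glucose enters through the transporters. Slc2a1, which encodes GLUT1, had 630 and 368 CPM in progesterone, 919 and 796 CPM in vehicle, and 402 and 256 CPM in transgenic tumours. Vehicle libraries were the highest, and progesterone and transgenic libraries overlapped. The log2 fold change was -0.78 ± 0.31 in progesterone against vehicle and 1.38 ± 0.32 in vehicle against transgenic tumours, the largest positive value of any member there (adjusted p = 0.810, edgeR). The first of these was -1.23 without progesterone 1 and -0.44 without progesterone 2. Against transgenic tumours, progesterone tumours stood at 0.60 ± 0.31, which was 0.15 without progesterone 1, 0.94 without progesterone 2, 0.96 without transgenic 1 and 0.31 without transgenic 2. Slc2a3 (GLUT3) had 16.6 to 24.7 CPM in progesterone, 31.6 to 31.8 CPM in vehicle and 16.1 to 27.3 CPM in transgenic tumours. Per length, Slc2a1 made up 96.8% to 98.7% of the summed level of the pair in all 6 libraries, so Slc2a1 dominated in every group.

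In upper glycolysis, Hk2, the inducible hexokinase, had 197 and 189 CPM in progesterone, 408 and 290 CPM in vehicle, and 225 and 180 CPM in transgenic tumours. Its log2 fold changes were -0.85 ± 0.22 in progesterone against vehicle and 0.78 ± 0.21 in vehicle against transgenic tumours, the second of which was 0.52 without vehicle 1. Hk1, the constitutive form, had 266 and 151 CPM in progesterone, 244 and 246 CPM in vehicle, and 151 and 194 CPM in transgenic tumours. Vehicle libraries were the highest in Hk2, whereas in Hk1 progesterone 1 was above both vehicle libraries. The Hk2 share of the Hk1 and Hk2 level per length was 51.4% and 64.2% in progesterone, 70.5% and 62.7% in vehicle, and 68.0% and 57.0% in transgenic tumours, with all groups overlapping. The lengths take in every annotated exon (8532 bases in Hk1, 5969 in Hk2), so the size of this share depends on the annotation. Gpi1, the isomerase that follows hexokinase, had 823 and 708 CPM in progesterone, 1438 and 1122 CPM in vehicle, and 762 and 645 CPM in transgenic tumours. Its vehicle libraries stood above the rest, with log2 fold changes of -0.74 ± 0.20 in progesterone against vehicle and 0.86 ± 0.20 in vehicle against transgenic tumours.

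The other enzymes of the upper pathway had smaller differences. Pfkp and Pfkl, forms of phosphofructokinase, Aldoa and Tpi1 had log2 fold changes between -0.45 (Pfkp) and -0.30 (Aldoa) in progesterone against vehicle tumours, and between 0.28 (Tpi1) and 0.43 (Pfkl) in vehicle against transgenic tumours. Of these only Pfkp reached an unadjusted p under 0.05, in progesterone against vehicle tumours (0.028, edgeR). Pfkfb3 makes the main activator of phosphofructokinase. It had 60.5 and 52.6 CPM in progesterone, 60.4 and 52.2 CPM in vehicle, and 52.5 and 61.8 CPM in transgenic tumours, so that all groups overlapped. Its log2 fold change was 0.01 ± 0.18 in progesterone against vehicle and -0.02 ± 0.18 in vehicle against transgenic tumours. Pfkfb4, of the same family, had 11.6 to 14.8 CPM over the 6 libraries, with log2 fold changes of -0.01 ± 0.25 and 0.14 ± 0.25 in these comparisons.

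Lower glycolysis held the most abundant members. Pkm, pyruvate kinase, was the highest of all members per length, at a mean of 649 CPM per kilobase of exon over the 6 libraries. It had 3173 and 2500 CPM in progesterone, 3476 and 4024 CPM in vehicle, and 3284 and 3016 CPM in transgenic tumours. Its vehicle libraries were the highest by a narrow margin, with log2 fold changes of -0.40 ± 0.19 in progesterone against vehicle and 0.25 ± 0.19 in vehicle against transgenic tumours. The first was -0.24 without progesterone 2, and the second 0.14 without vehicle 2. Pgk1, Pgam1 and Eno1 had log2 fold changes of -0.40, -0.34 and -0.23 in progesterone against vehicle tumours and of 0.22, 0.26 and 0.06 in vehicle against transgenic tumours, each with an SE of 0.18 to 0.22. Gapdh, which acts before Pgk1, had 41.2 and 35.2 CPM in progesterone, 96.0 and 50.4 CPM in vehicle, and 182 and 39.8 CPM in transgenic tumours. Both progesterone libraries lay below the vehicle libraries, and the 2 transgenic libraries were far apart. Its log2 fold changes were -0.94 ± 0.63 in progesterone against vehicle and -0.60 ± 0.63 in vehicle against transgenic tumours.

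Per length of exon, Gapdh averaged 17.9 CPM per kilobase over the 6 libraries, below the other enzymes of lower glycolysis, of which Pgam1 was the lowest at 209 CPM per kilobase. A large part of the sequence of these genes occurs in other genes too. Of the 31-base words in their transcripts, 54.7% in Pgk1, 37.1% in Pgam1, 34.7% in Pkm, 28.5% in Eno1 and 28.1% in Gapdh also occur in transcripts of other genes. Bnip3 had the highest such share of all members (57.0%), while Egln1, Egln3, Ddit4, Kdm3a, Slc16a3 and Stc2 had 0%. The sources used here do not give the counting settings, so levels of genes with copies are uncertain, and the part this plays in the Gapdh level was not tested. Without the 8 members with well-known processed copies in the mouse genome (Gapdh, Eno1, Ldha, Pgam1, Tpi1, Aldoa, Pgk1 and Pkm), the glycolytic median in vehicle tumours against the mean of the rest was 0.57 in place of 0.33. This set was not chosen by the share of common words. Gpi1, which was kept, had a share of 21.6%, above Ldha (19.6%), Aldoa (17.0%) and Tpi1 (10.5%).

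**Figure D5:**
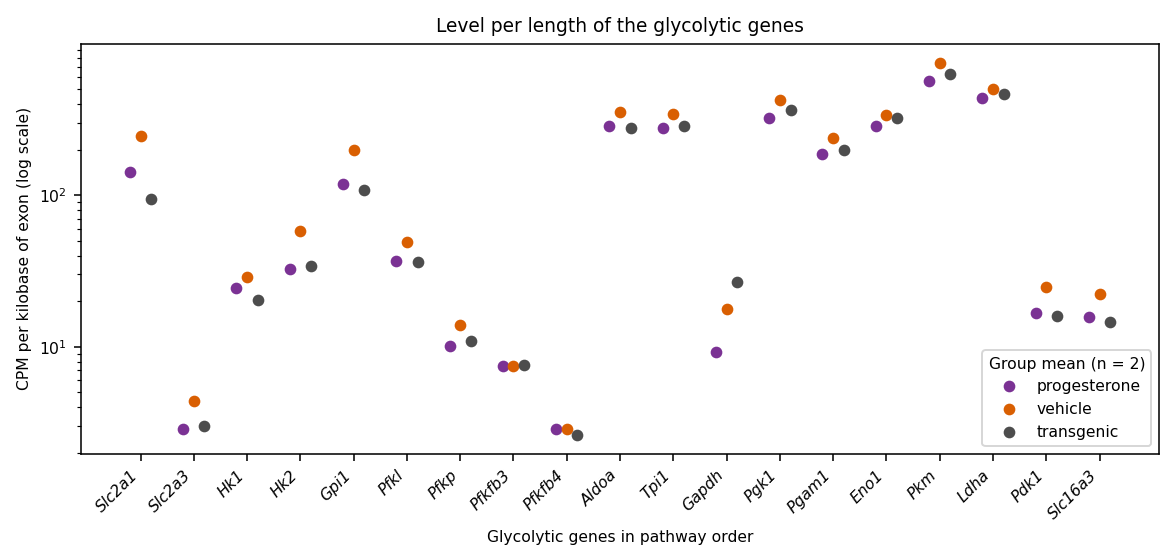
Mean CPM per kilobase of exon (y axis, log scale) of the 19 glycolytic genes in pathway order (x axis), with 1 point per group (n = 2). Pkm and Ldha are the highest, and Gapdh lies far below its neighbours in the pathway.

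At the end of glycolysis, Ldha makes lactate, Slc16a3 (MCT4) exports it and Pdk1 keeps pyruvate out of mitochondria. Pdk1 had 131 and 131 CPM in progesterone, 222 and 162 CPM in vehicle, and 149 and 100 CPM in transgenic tumours. Slc16a3 had 92.5 and 73.7 CPM in progesterone, 121 and 117 CPM in vehicle, and 95.01 and 59.7 CPM in transgenic tumours. In both genes the vehicle libraries were the highest, with log2 fold changes of -0.56 ± 0.24 (Pdk1) and -0.52 ± 0.24 (Slc16a3) in progesterone against vehicle and 0.62 ± 0.24 (each) in vehicle against transgenic tumours. Ldha, second per length at 467 CPM per kilobase, had log2 fold changes of -0.20 ± 0.20 and 0.12 ± 0.20 in these comparisons.

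Genes of mitophagy and collagen formation showed the higher vehicle level as well. Bnip3, which marks mitochondria for removal, had 166 and 162 CPM in progesterone, 311 and 260 CPM in vehicle, and 176 and 103 CPM in transgenic tumours. The vehicle libraries were the highest, with log2 fold changes of -0.80 ± 0.26 in progesterone against vehicle and 1.03 ± 0.26 in vehicle against transgenic tumours. Its relative Bnip3l had smaller values, -0.39 ± 0.14 and 0.33 ± 0.14. Ero1l, which oxidises the partner of disulphide formation in the endoplasmic reticulum, had 209 and 245 CPM in progesterone, 643 and 450 CPM in vehicle, and 278 and 184 CPM in transgenic tumours. Vehicle libraries stood well above the others, which overlapped. The log2 fold changes were -1.27 ± 0.27 (adjusted p = 0.826, edgeR) in progesterone against vehicle and 1.24 ± 0.27 in vehicle against transgenic tumours. P4ha1, a subunit of collagen prolyl hydroxylase, had 203 and 235 CPM in progesterone, 315 and 355 CPM in vehicle, and 233 and 188 CPM in transgenic tumours, with log2 fold changes of -0.61 ± 0.18 and 0.67 ± 0.18. Its vehicle libraries were again the highest. P4ha2 and Plod2, which hydroxylate collagen proline and lysine, had log2 fold changes of -0.70 ± 0.32 and -0.69 ± 0.29 in progesterone against vehicle and of 0.81 ± 0.32 and 0.55 ± 0.29 in vehicle against transgenic tumours.

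Among regulators of transcription, Bhlhe40, a repressor induced by hypoxia, had 79.3 and 87.7 CPM in progesterone, 223 and 152 CPM in vehicle, and 122 and 74.4 CPM in transgenic tumours. Vehicle libraries were the highest, and its log2 fold changes were -1.17 ± 0.28 in progesterone against vehicle and 0.93 ± 0.28 in vehicle against transgenic tumours. Ankrd37, an ankyrin repeat gene induced by HIF, had 17.2 and 14.0 CPM in progesterone, 29.9 and 26.4 CPM in vehicle, and 13.6 and 18.1 CPM in transgenic tumours. Its log2 fold changes were -0.85 ± 0.25 and 0.83 ± 0.25, with vehicle above all other libraries. Kdm3a, a histone demethylase, and Mxi1, a MYC antagonist, had log2 fold changes of -0.31 ± 0.18 and -0.29 ± 0.17 in progesterone against vehicle and of 0.56 ± 0.18 and 0.46 ± 0.17 in vehicle against transgenic tumours.

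Of the stress and secreted genes, Ndrg1 had log2 fold changes of -1.01 ± 0.31 in progesterone against vehicle and 0.67 ± 0.31 in vehicle against transgenic tumours. Ddit4, an inhibitor of mTORC1, had -0.44 ± 0.30 and 0.87 ± 0.30, and Ak4, a mitochondrial adenylate kinase, -0.28 ± 0.18 and 0.29 ± 0.18. Angptl4, an inhibitor of lipoprotein lipase that fatty acids and hypoxia both induce, had 23.7 and 35.1 CPM in progesterone, 24.6 and 35.2 CPM in vehicle, and 99.6 and 45.9 CPM in transgenic tumours. Both transgenic libraries were above the other 4, which overlapped. The log2 fold change was -0.02 ± 0.39 in progesterone against vehicle, -1.28 ± 0.40 in vehicle against transgenic (adjusted p = 0.810, edgeR), and -1.31 ± 0.40 in progesterone against transgenic tumours. Without transgenic 1 these were -0.62 in vehicle against transgenic and -0.65 in progesterone against transgenic tumours. Stc2, a secreted glycoprotein, was the lowest member per length (0.306 CPM per kilobase), at 0.85 and 2.32 CPM in progesterone, 2.78 and 1.27 CPM in vehicle, and 1.07 and 1.22 CPM in transgenic tumours, with the progesterone libraries overlapping both other groups. The carbonic anhydrases Car9 and Car12, which buffer pH at the cell surface, were low and uneven. Car9 had 13.2 and 19.5 CPM in progesterone, 32.2 and 23.6 CPM in vehicle, and 24.2 and 5.35 CPM in transgenic tumours, and Car12 ranged from 4.53 to 19.7 CPM within the vehicle tumours alone.

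Genes around the list were read from 5 further lists, of which 0 genes were called by edgeR in any comparison. Of 12 genes of the HIF machinery, 11 were tested, with medians of -0.13 in progesterone against vehicle and 0.16 in vehicle against transgenic tumours. Cited2, which competes with HIF for its coactivator, had 180 and 135 CPM in progesterone, 238 and 191 CPM in vehicle, and 146 and 115 CPM in transgenic tumours. Its vehicle libraries were the highest, but it was named for its small p in vehicle tumours against the mean of the rest. Both vehicle libraries lay above all others in 3 of the 11 genes tested (6.87% of all genes). Arnt, the HIF partner, and Vhl, which marks HIF for destruction, had log2 fold changes of -0.13 ± 0.16 and -0.27 ± 0.19 in progesterone against vehicle, and of 0.43 ± 0.16 and 0.33 ± 0.19 in vehicle against transgenic tumours. Arnt2 was at most 3.18 CPM in any library. Epas1 had 13.0 and 36.6 CPM in progesterone, 18.1 and 16.6 CPM in vehicle, and 18.0 and 25.8 CPM in transgenic tumours, with all groups overlapping.

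Of 40 further hypoxia targets, 37 were tested, and 28 were higher and 9 lower in vehicle tumours than in the mean of the rest (median 0.28). Adm, a peptide that widens vessels, had 98.6 and 96.7 CPM in progesterone, 286 and 193 CPM in vehicle, and 126 and 63.9 CPM in transgenic tumours. Maff, a small MAF factor, and Gys1, glycogen synthase, had log2 fold changes of -0.92 ± 0.22 and -0.43 ± 0.20 in progesterone against vehicle and of 0.50 ± 0.22 and 0.73 ± 0.20 in vehicle against transgenic tumours. In these 3 genes vehicle libraries were the highest, but they were named for their small p in vehicle tumours against the mean of the rest. Over the list, both vehicle libraries lay above all other libraries in 14 of the 37 targets tested (6.87% of all genes). They lay below all others in 0 (7.33% of all genes). Hmox1, haem oxygenase, was low in vehicle and transgenic tumours, with 373 and 406 CPM in progesterone, 180 and 188 CPM in vehicle, and 202 and 162 CPM in transgenic tumours. Both progesterone libraries were the highest, with a log2 fold change of 1.08 ± 0.17 against vehicle.

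Other glycolytic genes, 13 of 18 tested, had medians of -0.35 in progesterone against vehicle and 0.07 in vehicle against transgenic tumours. Eno2 and Aldoc, forms best known from neurons, had log2 fold changes of -0.36 ± 0.31 and -1.18 ± 0.67 in progesterone against vehicle and of 1.27 ± 0.32 and 1.96 ± 0.69 in vehicle against transgenic tumours. Both were named for their small p in vehicle tumours against the mean of the rest. Aldoc had 5.72 and 2.15 CPM in progesterone, 13.7 and 4.19 CPM in vehicle, and 2.22 and 2.36 CPM in transgenic tumours. In both genes vehicle and progesterone libraries overlapped, as Eno2 had 18.7 and 22.3 CPM in progesterone and 32.1 and 20.6 CPM in vehicle tumours. Hk3, the hexokinase of myeloid cells, had 31.6 and 28.7 CPM in progesterone, 14.5 and 13.6 CPM in vehicle, and 13.7 and 40.5 CPM in transgenic tumours. Vehicle libraries were low in Hk3, with 1 transgenic library at their level. The lactate transporter Slc16a1 had log2 fold changes of -0.38 ± 0.22 and 0.33 ± 0.22 in these comparisons. The 12 genes of pyruvate entry into mitochondria had medians of -0.04 in progesterone against vehicle and -0.10 in vehicle against transgenic tumours, with Pdk3, Pdk2, Pdhx and Pdhb between -0.29 and 0.16 in progesterone against vehicle tumours. The 7 genes of the pentose phosphate pathway had medians of 0.07 and -0.03 in these comparisons, with G6pdx, Pgd, Taldo1 and Rpe between 0.05 and 0.21 in progesterone against vehicle tumours. Both vehicle libraries lay above all others in 0 of 13 other glycolytic genes (6.87% of all genes). The same count was 0 of 12 for pyruvate entry and 0 of 7 for the pentose phosphate pathway.

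Other gene groups moved with the same libraries. Of 20 cell cycle genes, 20 were higher in progesterone than in vehicle tumours (median 0.47) and 20 lower in vehicle than in transgenic tumours (median -0.79), with sums of 2787 and 3021 CPM in progesterone, 2017 and 2355 CPM in vehicle, and 3049 and 3882 CPM in transgenic tumours. Of 11 immediate early and heat shock genes, which tissue handling can induce, 11 were lower in progesterone than in vehicle tumours (median -1.19) and 10 higher in vehicle than in transgenic tumours (median 0.69). Their sums were 731 and 576 CPM in progesterone, 1068 and 1062 CPM in vehicle, and 789 and 738 CPM in transgenic tumours. The 13 mitochondrially encoded genes summed to 14038 and 15677 CPM in progesterone, 12160 and 11824 CPM in vehicle, and 14237 and 15127 CPM in transgenic tumours. By sum, vehicle libraries were thus the lowest for cell cycle and mitochondrial genes and the highest for the immediate early and heat shock genes. Per gene, both vehicle libraries lay below all others in 19 of 20 cell cycle and 6 of 13 mitochondrial genes (7.33% of all genes). They lay above all others in 7 of 11 immediate early and heat shock genes (6.87% of all genes). The part of these gene groups in the members' values was not tested.

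Markers of host cells did not all follow the vehicle libraries. Macrophage markers (14 of 15 in the table) summed to 2832 to 3127 CPM in progesterone, 1712 to 2019 CPM in vehicle, and 1398 to 2914 CPM in transgenic tumours. Fibroblast markers (11 of 12) summed to 8639 to 14036 CPM in progesterone, 15503 to 17345 CPM in vehicle, and 3660 to 11781 CPM in transgenic tumours. These sums rest mostly on Fn1 and Col3a1. Per gene the fibroblast markers did not follow the vehicle libraries as a list: 6 were higher and 5 lower in vehicle tumours than in the mean of the rest, with a median of 0.07 on the log2 scale, and Col1a1 was highest in progesterone 2 (1164 CPM, against 73.1 to 415 CPM in the other 5 libraries). Endothelial markers (12 of 12) summed to 255 to 417 CPM in progesterone, 417 to 431 CPM in vehicle, and 428 to 439 CPM in transgenic tumours. Red blood cell markers (7 of 7) summed to 86.2 to 167 CPM in progesterone, 299.9 to 2503 CPM in vehicle, and 65.5 to 2828 CPM in transgenic tumours. Mast cell markers (9 of 9) summed to 115 to 209 CPM in progesterone, 54.2 to 57.3 CPM in vehicle, and 42.2 to 48.2 CPM in transgenic tumours. Per gene, 7 of them were higher and 2, Kit and Mcpt8, lower in progesterone than in vehicle tumours. Mcpt8 had 0.039 and 0.29 CPM in progesterone, 4.01 and 2.23 CPM in vehicle, and 0.593 and 3.41 CPM in transgenic tumours. T cell markers (9 of 9) summed to 4.51 to 5.29 CPM in progesterone, 0.795 to 1.58 CPM in vehicle, and 2.15 to 12.2 CPM in transgenic tumours. Neutrophil (10 of 10), skeletal muscle (14 of 15) and adipocyte markers (8 of 8) summed to between 7.79 and 240 CPM in every library, and keratinocyte markers (6 of 6) summed to 0.421 to 2.0003 CPM. None of the markers in the table was at 0 in all 6 libraries, and the part of any of these cell types in the members' values was not tested.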

How the data were processed

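The deposited table holds raw read counts per gene for 6 libraries, which the authors made, per the submitters' processing notes, with HISAT2, HTSeq and DESeq on GRCm38.p6. Versions and the strand setting: not given in the sources used here. Per the labels' protocols, 500 ng of RNA entered a directional mRNA kit. Counts were analysed in R 4.3.3 with edgeR 4.0.16: filterByExpr (13632 of 19288 genes), TMM scaling, and 1 quasi-likelihood fit over all 6 libraries, with a mean for each group, which leaves 3 residual degrees of freedom. Calls required an adjusted p (Benjamini-Hochberg, all genes tested) under 0.05. Standard errors derive from the F statistic. CPM values are TMM-scaled. DESeq2 1.42.0 and limma 3.58.1 (voom) were alternatives. Exon lengths and gene IDs come from GENCODE M21 (GRCm38), which held 19284 of the IDs. The exon length of a gene is the union of its exons over all annotated transcripts. Levels per length, and rankings of genes by them, can therefore be too low where the transcripts in use are shorter.

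The members, gene lists, tests and alternatives were chosen with earlier results of these data known, so list medians and counts carry no test. Values in every library are given for the 10 members with the smallest p in vehicle tumours against the mean of the others, Hif1a, Egln1, Egln3, members against the median's direction, and those highest and lowest per length. Choosing by that p favours members in which the vehicle libraries stand apart from the rest. Per-library values of Slc2a3, Hk1, Gapdh, Pdk1, Slc16a3, Car9 and Car12 were added after their values were seen. From each pathway list up to 4 genes with the smallest p are named, plus Epas1, Arnt and Vhl. The fit was also run on counts simulated with set fold changes in the vehicle libraries. How many of those changes it called is not reported here, so the text gives no measure of what this design can detect. A count of 0 would allow up to 3 counts, or 0.0997 to 0.154 CPM, for counting error only. Replicate numbers were not used as pairs: deviations of same-numbered libraries correlated at -0.125 between progesterone and vehicle, -0.174 between progesterone and transgenic, and 0.0804 between vehicle and transgenic tumours.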

Additional observations from a re-analysis of the deposited data

How the results depend on the processing

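With 2 libraries a group and 3 residual degrees of freedom, edgeR called 0 genes under RLE and upper quartile scaling, limma-voom called 0, and so did each fit that left out 1 library or used only the groups compared. Without the filter on low counts, edgeR called 92 genes (3 members) in progesterone against vehicle, 12 (2) in vehicle against transgenic, 28 (0) in progesterone against transgenic, and 35 (5) in vehicle against the mean of the others. DESeq2 called 75 (5), 66 (4), 47 (0) and 73 (9) in the same order. The cause of these differences was not tested. With the replicate number as a block, 0 genes were called in each of the 4 comparisons, and with the progesterone numbers crossed in that block, chosen after seeing the data, also 0; Ero1l in progesterone against transgenic turned to 0.0164 under the replicate block.

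With 1 library left out, the median of the members ran from 0.33 to 0.64 in vehicle against transgenic, from -0.19 to 0.14 in progesterone against transgenic, and from 0.43 to 0.62 in vehicle against the mean of the others. In vehicle against transgenic it was 0.62 without the members that have processed copies. In the same way, uncalled log2 fold changes near 0 changed sign. In progesterone against vehicle tumours Pfkfb3 ran from -0.10 to 0.11, Angptl4 from -0.33 to 0.25 and Stc2 from -1.26 to 0.30. In vehicle against transgenic tumours Pfkfb3 ran from -0.13 to 0.10. In progesterone against transgenic tumours the ranges were -0.30 to 0.30 for Ero1l, -0.54 to 0.16 for Bhlhe40, -0.22 to 0.10 for Hk2, -0.11 to 0.67 for Bnip3, -0.0895 to 0.22 for P4ha1, -0.21 to 0.20 for Ankrd37, -0.13 to 0.11 for Pfkfb3, -0.34 to 0.0124 for Pkm and -0.43 to 1.01 for Stc2. In vehicle against the mean of the others they were -0.12 to 0.0875 for Pfkfb3 and -0.0765 to 1.04 for Stc2. With limma-voom, Pfkfb3 in progesterone against vehicle was -0.000373 and Ero1l in progesterone against transgenic 0.00142. With upper quartile scaling, Angptl4 in progesterone against vehicle was 0.0189, and in progesterone against transgenic Ankrd37 was 0.000316 and Pfkfb3 0.0068. The cause was not tested.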
